A study of Mus musculus with 4 samples.

Results

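Integrins, laminins and nidogens were examined in freshly sorted peritoneal mesothelial cells of the mouse, the flat cells that line the abdominal cavity. The members were all genes of the deposited table whose symbols name an integrin alpha or beta subunit, a laminin alpha, beta or gamma chain, or a nidogen. This gave 39 genes of 48425. They were 18 integrin alpha subunits, 8 integrin beta subunits, 5 laminin alpha chains, 3 laminin beta chains, 3 laminin gamma chains and 2 nidogens. The study holds 1 group and no treatment: 4 mice labelled WT (C57BL/6, 10 weeks old), each giving its own library. Cells were released by filling the rinsed cavity with 5 ml of trypsin and EDTA (0.25%) for 20 min at 37 °C, and were sorted as CD45-, podoplanin-positive and Gpm6a-positive. The gate selects on these antigens alone, and undigested tissue was not analysed here.

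Integrins are surface receptors made of 1 alpha and 1 beta subunit, and the alpha subunit largely decides which matrix protein is bound. Laminins are cross-shaped trimers of 1 alpha, 1 beta and 1 gamma chain that polymerise into the core of a basement membrane, and nidogens bridge the laminin and type IV collagen networks. The mesothelium rests on such a membrane, and its integrins anchor the cells to it.

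Levels are given as CPM (counts-per-million, the estimated count of a gene over the total of its library), in animals 1 to 4. Library totals ran from 4090224 to 4569578 estimated counts, and 3 counts correspond to 0.657 to 0.733 CPM in a single library and to 0.171 CPM over the group. CPM grows with transcript length, so members are compared with each other as CPM per kb of the longest annotated transcript. Genes of the further lists are named by their CPM, which is not divided by length and gives no order of transcript number. Floors cover counting error only. Marker RNA was read beside the label: 8 of 8 mesothelial markers lay above 1 CPM, with summed levels of 11880 to 13435 CPM. Of 8 fibroblast markers 7 were also above 1 CPM. Their summed levels, 14759 to 22287 CPM, were larger in each animal, so marker levels alone do not settle the label. Most of the fibroblast sum was Dcn, at 10961 to 15498 CPM. Pi16, at 0.615 to 2.41 CPM, was the fibroblast marker not above 1 CPM. The sums are over different genes and are not divided by length, so they give no order of transcript number. In a bulk sample, fewer cells of a type and less RNA per cell cannot be told apart.

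Of the 39 members, 23 were called above 1 CPM and 16 were not (edgeR quasi-likelihood test, one-sided, Benjamini-Hochberg adjustment over all genes, threshold 0.05). Throughout, genes given as above 1 CPM or not are those called or not called. A gene not called is not shown to lie under that level: 14 members had a mean under 1 CPM. The share of members called was 59.0%, beside 24.7% of all genes of the table. Many genes of the table had no count at all. Among genes with a rounded count the background was 52.9%, beside 65.7% (23 of 35) of the members. By limma with voom weights 20 members were above 1 CPM, beside 23.9% of all genes, and by DESeq2 23, beside 53.1% of the genes with a count. By class, 8 of 18 integrin alpha subunits, 5 of 8 integrin beta subunits, 3 of 5 laminin alpha chains, 2 of 3 laminin beta chains and 2 of 2 nidogens were above 1 CPM. The median member had a mean of 6.98 CPM, and the median over all genes was 0. A mean of at least 100 CPM was reached by 3 members, namely Nid2, Itgb1 and Lamb1. No count was found for Itgae, Itgam, Itgb7 and Lama1, which allows up to 0.171 CPM over the group. For Itgam that limit covers only reads assigned to it. The gene model Gm49368 shares 3450 exon bases with Itgam on the same strand, at 99.9% identity over 3454 bases. The deposited table has no row under the symbol Gm49368, so its level could not be read.

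**Figure D1:**
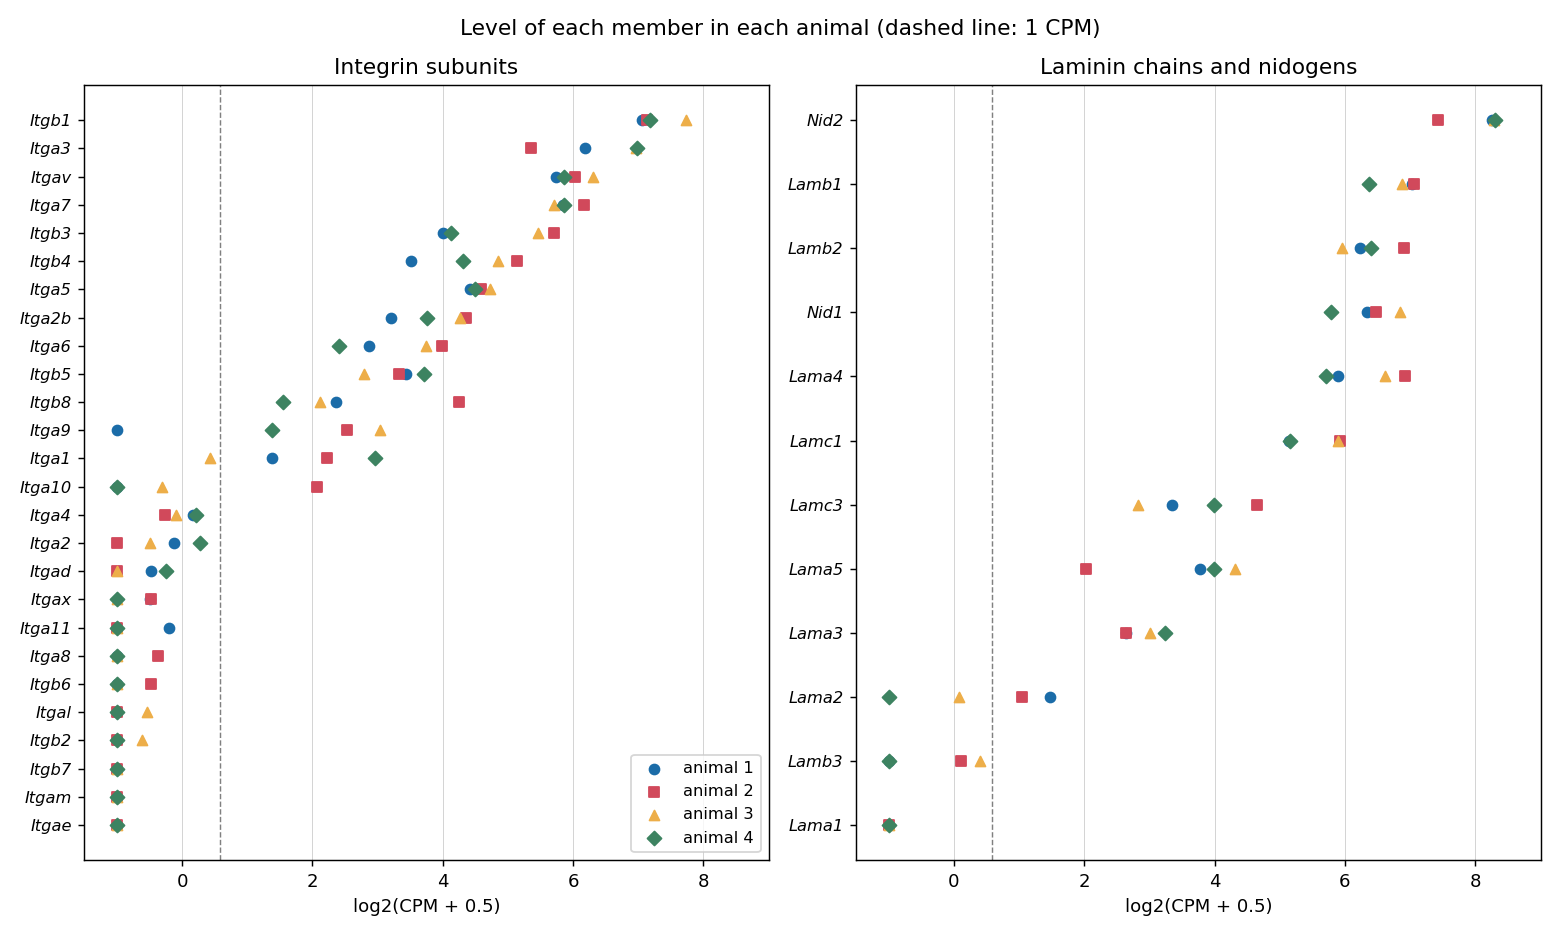
Each symbol is the level of a named member in 1 animal, as log2(CPM + 0.5), with integrins on the left and laminins and nidogens on the right, ordered by mean CPM, and the dashed line at 1 CPM. Nid2 and Itgb1 head the panels, and the leukocyte integrins lie at or near the left edge, where the level is 0.

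The stretch around the transcription start was read for the members that RefSeq's promoter table (GRCm38.p6) holds, which were 24 of 39, with 3 members having more than 1 start. Each window spans 300 bases. The count of the dinucleotide CG, the site of DNA methylation in mammals, is a general feature that separates housekeeping-like from tissue-restricted promoters. It reads the same on both strands. The 5 windows printed here are those of a ubiquitous subunit with a high level (Itgb1), an abundant laminin chain (Lamb2), a platelet subunit that was above 1 CPM here (Itga2b), a subunit near 0 (Itga8) and a leukocyte subunit with no count (Itgam). They were chosen after their levels were seen. Each is written 5′ to 3′ on the strand of the gene, with every CG in capitals.
Itgb1: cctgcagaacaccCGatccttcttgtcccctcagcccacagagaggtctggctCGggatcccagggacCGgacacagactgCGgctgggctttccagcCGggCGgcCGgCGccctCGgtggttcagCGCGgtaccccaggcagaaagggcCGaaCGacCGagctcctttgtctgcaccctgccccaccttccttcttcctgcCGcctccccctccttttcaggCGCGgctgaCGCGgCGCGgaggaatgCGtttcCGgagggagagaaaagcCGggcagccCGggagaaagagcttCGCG
Lamb2: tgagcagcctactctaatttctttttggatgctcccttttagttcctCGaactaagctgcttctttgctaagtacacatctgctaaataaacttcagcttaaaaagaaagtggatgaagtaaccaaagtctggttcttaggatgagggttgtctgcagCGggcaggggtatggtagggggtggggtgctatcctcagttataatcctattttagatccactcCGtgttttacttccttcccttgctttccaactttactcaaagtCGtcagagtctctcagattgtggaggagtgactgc
Itga2b: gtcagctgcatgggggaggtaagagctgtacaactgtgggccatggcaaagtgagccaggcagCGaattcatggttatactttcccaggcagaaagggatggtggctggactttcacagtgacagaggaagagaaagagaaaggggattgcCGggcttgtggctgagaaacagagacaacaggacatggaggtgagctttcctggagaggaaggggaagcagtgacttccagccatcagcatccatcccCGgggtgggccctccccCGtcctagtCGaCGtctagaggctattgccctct
Itga8: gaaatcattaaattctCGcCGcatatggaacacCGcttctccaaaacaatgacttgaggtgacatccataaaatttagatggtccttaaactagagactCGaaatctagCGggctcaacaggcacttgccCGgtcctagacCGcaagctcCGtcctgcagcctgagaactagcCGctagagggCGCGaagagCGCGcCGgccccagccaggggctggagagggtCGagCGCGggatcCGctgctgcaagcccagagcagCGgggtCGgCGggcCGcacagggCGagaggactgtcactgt
Itgam: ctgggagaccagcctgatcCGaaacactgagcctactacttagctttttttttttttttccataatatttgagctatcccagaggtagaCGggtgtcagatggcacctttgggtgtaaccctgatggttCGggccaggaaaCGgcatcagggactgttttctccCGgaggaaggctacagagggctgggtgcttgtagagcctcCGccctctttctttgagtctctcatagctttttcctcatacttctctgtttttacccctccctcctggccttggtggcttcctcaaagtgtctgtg
The Itgb1 window lies at chr8:128685404-128685703 (plus strand) and held 27 CG, a number reached by 15.5% of 32851 windows of the same length. The Lamb2 window (chr9:108479612-108479911, plus strand) held 4, and the Itga2b window (chr11:102469834-102470133, minus strand) held 6. The Itga8 window (chr2:12301895-12302194, minus strand) held 23, and the Itgam window (chr7:128062390-128062689, plus strand) held 6. Among other matched members, the windows of Itgav and Lama5 and the upstream window of Itga3 held 24 each, those of Nid1 and Itgb5 20 each and that of Lama2 1. The median over all windows was 7, with quartiles of 3 and 20. CG content and level therefore did not run in 1 order among the 5 printed genes: Lamb2 was high with few CG, and Itga8 was near 0 with many. Another 3 motifs were searched on both strands: the core promoter element TATAAA, the motif AGATAA of GATA factors, and the AP-1 motif TGANTCA, which reads the same on both strands. TATAAA was found in 0 of the 24 matched members, beside 13.6% of all windows. AGATAA was found in 1 (Itgax), beside 11.2%, and TGANTCA in 3 (Itga3, Itga9 and Itgax), beside 7.81%. A member counted if any of its windows held the motif, whereas the percentages are shares of windows. For Itga3 the motif lay in the downstream window only. The Itga9 window (chr9:118711442-118711741, plus strand) lies inside the gene as annotated by GENCODE, from 118606690 to 118901003. None of these 3 motifs is in the 5 printed windows.

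Beta subunits set the frame for integrin pairing. Itgb1, the common partner of most laminin, fibronectin and collagen receptors, lies on chromosome 8 at 128685654 to 128733200. Its level was 133, 140.4, 211 and 144 CPM in animals 1 to 4 (157 ± 36.4 CPM, SD, n = 4). Animal 3 stood above the other three, which lay close together. Itgb1 was the highest integrin gene by CPM and also per length, at 41.2 ± 9.55 CPM per kb. It held 76.0% ± 7.36 of the summed level per length of the 8 beta subunits, between 65.1% in animal 2 and 81.0% in animal 1.

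Itgb3, the partner of Itgav and of the platelet subunit Itga2b, had 15.5, 51.9, 43.4 and 17.0 CPM. Animals 2 and 3 were high and animals 1 and 4 low. Itgb4, the beta subunit of hemidesmosomes, which binds laminin together with Itga6, had 10.9, 34.8, 28.2 and 19.4 CPM, in the same order of high and low animals. Itgb5, a vitronectin receptor subunit that pairs with Itgav, went the other way, with 10.3, 9.53, 6.43 and 12.5 CPM and its lowest value in animal 3. Itgb8, which with Itgav binds latent TGF-beta, had 4.67, 18.5, 3.83 and 2.42 CPM, with animal 2 alone high. Per length these subunits held 9.74% ± 4.61 (Itgb3), 6.76% ± 2.39 (Itgb4), 5.81% ± 2.34 (Itgb5) and 1.61% ± 1.56 (Itgb8) of the beta sum.

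The 3 beta subunits that were not above 1 CPM were Itgb6, Itgb2 and Itgb7. Itgb6, an epithelial subunit that binds latent TGF-beta, had a single count, in animal 2. Itgb2, the common beta subunit of leukocyte integrins, had a single count, in animal 3. Itgb7, the gut-homing lymphocyte subunit, had none.

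The highest alpha subunits per length, Itga3 and Itga7, are laminin receptors, whereas Itga6, which also binds laminin, was lower. Itga3, a receptor for the laminins of epithelial basement membranes, lies on chromosome 11 at 95044474 to 95076801. It had 72.3, 40.5, 124 and 126 CPM (90.7 ± 41.7 CPM), with animal 2 lowest and animals 3 and 4 high. Itga7, a laminin receptor best known from skeletal muscle, lies on chromosome 10 at 128933818 to 128958282. It was steadier, with 56.9, 71.7, 51.8 and 57.4 CPM (59.4 ± 8.55 CPM). Skeletal muscle markers measured beside it were low. By edgeR 1 of 6 was above 1 CPM (Des, at 13.8 to 35.6 CPM). By limma 2 were (also Mylpf, at 1.24 to 2.75 CPM). Their summed level was 15.4 to 39.5 CPM, and Ckm and Myh4 had no count. Of 8 markers of smooth muscle and pericytes 5 were above 1 CPM by edgeR, with summed levels of 87.3 to 213 CPM. The part of muscle RNA in the level of Itga7 was not tested. Itga6, the partner of Itgb4 and of Itgb1 in laminin binding, had 6.78, 15.4, 12.9 and 4.80 CPM, with animals 2 and 3 high as for Itgb4.

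Per length, Itga3 held 32.8% ± 12.1 of the alpha sum, Itga7 27.2% ± 6.53 and Itga6 4.19% ± 2.10. Itga3 ranged from 16.0% in animal 2, where it lay below Itga7, to 43.6% in animal 4. The order of these shares is thus not the same in every animal: Itga7 was above Itga3 in animal 2 alone. Itga3 exceeded Itga6 by 2.94 ± 1.31 on the log2 scale per length, in each of the 4 animals (two-sided exact sign-flip p = 0.125). With 4 animals that is the smallest p this test can give, so no pair can pass 0.05, and size, spread and direction are what the pairs show.

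Of the subunits that bind the RGD motif of fibronectin and vitronectin, Itgav and Itga5 lay above Itga6 in mean level per length, and Itga8 was near 0. Itgav, which pairs with several beta subunits and also binds latent TGF-beta, had 52.8, 64.9, 78.3 and 57.9 CPM (63.5 ± 11.0 CPM). Itga5, the classical fibronectin receptor subunit, had 21.0, 23.6, 26.0 and 22.0 CPM. With a coefficient of variation of 9.52%, beside the 9.91% that counting error alone gives at this depth, Itga5 varied least between animals of the 16 members with a mean of at least 10 CPM. Itgav exceeded Itga5 by 0.75 ± 0.11 log2 per length, in 4 of 4 animals (exact p = 0.125), and these subunits held 16.2% ± 1.70 and 9.51% ± 0.960 of the alpha sum. Itga8, a nephronectin receptor subunit, had 1.19 estimated counts, all in animal 2.

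Itga2b, the alpha subunit of the platelet fibrinogen receptor, was above 1 CPM with 8.76, 20.1, 18.7 and 13.1 CPM. It lies on chromosome 11 at 102453297 to 102470122. Per length it held 7.88% ± 2.51 of the alpha sum. Markers of platelets and megakaryocytes were near 0 in the same libraries: 0 of 8 were above 1 CPM by edgeR, also 0 with no adjustment of p and 0 by limma with voom weights. Their summed level was 0.465, 2.22, 2.44 and 1.97 CPM, and Gp1bb and Treml1 had no count. The highest of that list by mean CPM, Pf4, had 0.266 to 1.16 CPM, and Ppbp reached 1.60 CPM in animal 2 with no count in the others.

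Collagen-binding alpha subunits were low. Itga1 had 2.09, 4.18, 0.845 and 7.32 CPM and was above 1 CPM, although animal 3 lay under that level. Its call was lost without animal 4 (fitted level 2.41 CPM, adjusted p = 0.105 by edgeR) and by limma with voom weights (adjusted p = 0.110). Itga10 had 16.2 estimated counts in animal 2 and 1.40 in animal 3, and none in animals 1 and 4. Itga2 had 5.78 estimated counts over the 4 libraries, and Itga11 had 1.67. Itga10 shares exon sequence on the same strand with the gene model Gm42957, which had 3.39 counts in all. Itga1 shares 685 exon bases on the same strand with the gene model Gm49395, a symbol with no row in the deposited table. Per length Itga1 exceeded Itga2 in 4 of 4 animals, by 1.46 ± 1.05 log2 (exact p = 0.125), with ranges that overlapped.

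Itga9, which binds tenascin and other matrix ligands, had 0, 5.28, 7.68 and 2.10 CPM and was above 1 CPM on the mean, with no count in animal 1. That call was lost without animal 3 (2.45 CPM, adjusted p = 0.173 by edgeR) and by limma (adjusted p = 0.946). Its relative Itga4, a leukocyte and mesenchymal receptor for Vcam1 and fibronectin, had 0.338 to 0.658 CPM and was not above 1 CPM.

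Leukocyte alpha subunits gave at most a few counts. Itgal had 0.876 estimated counts over all libraries, Itgax 1.92 and Itgad 2.41, and Itgam and Itgae had none. Itgad and Itgax match each other at 95.0% identity over 758 bases, so their reads can be shared. Itgam, Itgax and Itgad are neighbours on chromosome 7, with gaps of 11.1 and 3.72 kb. Of 12 leukocyte markers 1 was above 1 CPM (Cd14, at 35.4 to 65.9 CPM), or 2 by edgeR with no adjustment of p. Cd4, Nkg7 and Coro1a had no count. The summed level of the list was 76.9, 56.0, 36.4 and 66.9 CPM in animals 1 to 4, most of it Cd14. The highest value lay in animal 1 for 5 markers, in animals 2 and 4 for 2 each and in animal 3 for 0.

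**Figure D2:**
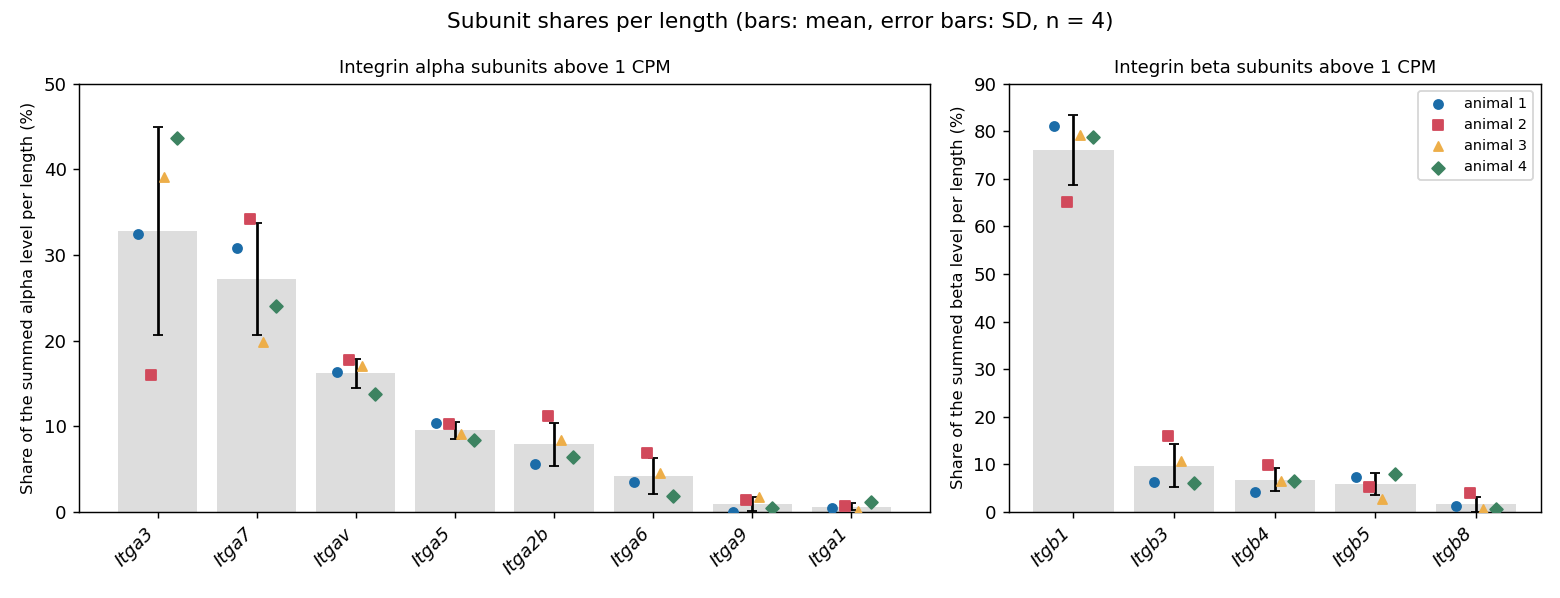
Bars give the mean share of each subunit in the summed level per length of its class, in percent, for subunits above 1 CPM, with SD over 4 animals and each animal as a symbol. Itgb1 holds 65.1% to 81.0% of the beta sum in every animal, whereas the alpha sum is spread over Itga3, Itga7 and Itgav, with animal 2 lowest for Itga3.

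Summed per length, the alpha subunits stood at 55.7 ± 8.43 CPM per kb and the beta subunits at 54.4 ± 11.8 CPM per kb. Their ratio was 1.07, 0.922, 0.932 and 1.24 in animals 1 to 4. The sign of the difference was not the same in every animal.

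Among laminin alpha chains, Lama4, which is typical of vascular and mesenchymal basement membranes, was highest. It lies on chromosome 10 at 38965515 to 39110188 and had 58.9, 121, 97.1 and 51.5 CPM (82.2 ± 32.7 CPM). Animals 2 and 3 were high and animals 1 and 4 low. Lama5, the main alpha chain of adult epithelial basement membranes, had 13.2, 3.58, 19.5 and 15.4 CPM, with animal 2 far below the rest. Lama3, the alpha chain of the laminin that anchors skin epithelium, had 5.71, 5.74, 7.52 and 8.96 CPM.

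Lama2, the chain of muscle and nerve, had 2.28, 1.56, 0.557 and 0 CPM and was not above 1 CPM (adjusted p = 1.00 by edgeR). Schwann and glial markers were also sparse, with 1 of 6 above 1 CPM (Mbp, at 57.6 to 90.3 CPM), and Sox10 and Cdh19 had no count. Lama1, an early embryonic chain, had no count.

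Per length, Lama4 held 86.2% ± 6.66 of the alpha chain sum, Lama5 8.31% ± 4.77 and Lama3 4.75% ± 2.28. Lama4 exceeded Lama5 by 3.66 ± 1.43 log2 in 4 of 4 animals (exact p = 0.125), from 2.63 in animal 4 to 5.78 in animal 2. Lama5 exceeded Lama2 by 2.87 ± 1.80 in 4 of 4 animals. Lama5 and Lama3 did not separate: Lama5 was higher in 3 of 4 animals, by 0.55 ± 0.86 on average (exact p = 0.375).

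Lamb1 and Lamb2 are the beta chains of most laminins. Lamb1 had 131, 133, 117 and 81.8 CPM, with animal 4 lowest. Lamb2 had 74.4, 119.9, 61.3 and 83.6 CPM, with animal 2 highest. Per length they were 20.0 ± 4.08 and 15.1 ± 4.46 CPM per kb, and the difference of 0.42 ± 0.48 log2 was within the spread between animals, with Lamb1 higher in 3 of 4 (exact p = 0.250). With the median length of the annotated coding transcripts, which for Lamb2 is 409 bases, Lamb1 minus Lamb2 was -3.30. Lamb3, a beta chain that partners Lama3, had 6.29 estimated counts over the 4 libraries, found in animals 2 and 3.

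Lamc1, the gamma chain of nearly all laminins, had 34.9, 60.2, 58.9 and 35.2 CPM. Animals 2 and 3 were again high and animals 1 and 4 low. Lamc3, a gamma chain of a few tissues, had 9.67, 24.5, 6.55 and 15.5 CPM, with animal 2 highest and animal 3 lowest.

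Per length Lamc1 exceeded Lamc3 by 1.45 ± 0.87 log2, in 4 of 4 animals (exact p = 0.125). Lama3 was above 1 CPM and its partner Lamb3 was not, at 0.662 and 0.0721 CPM per kb.

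The beta and alpha chains did not have the same total. Beta chains summed to 35.8, 44.4, 31.3 and 29.0 CPM per kb in animals 1 to 4, and alpha chains to 11.7, 21.0, 18.5 and 10.7. The beta sum was 2.39 ± 0.612 times the alpha sum, and above 1 in 4 of 4 animals. This ratio rests on the longest transcript of each gene: with the median length of the coding transcripts the beta sum was 15.2 times the alpha sum.

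**Figure D3:**
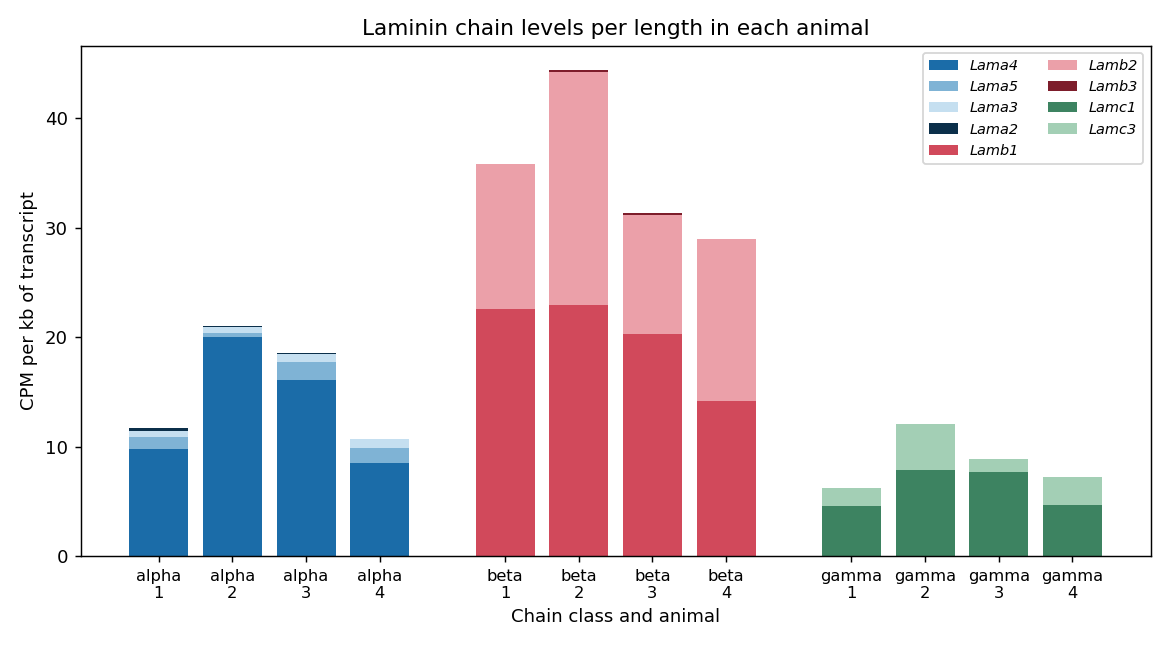
Stacked bars give the level per length (CPM per kb of transcript) of the laminin chains in each animal, grouped by chain class. Lama4 makes up most of each alpha bar, Lamb1 and Lamb2 share the beta bars, the gamma bars hold Lamc1 and Lamc3, and beta bars are the tallest in all 4 animals.

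Nid2 was the highest member. It lies on chromosome 14 at 19751265 to 19811787 and had 307, 171, 313 and 314 CPM (276 ± 70.2 CPM). Animal 2 stood apart below the other three, which lay within a few CPM of each other. Nid1, on chromosome 13, had 80.3, 88.9, 115 and 54.9 CPM. Per length Nid2 was 56.6 ± 14.4 CPM per kb and Nid1 13.9 ± 4.05 CPM per kb, a difference of 2.02 ± 0.67 log2 in 4 of 4 animals (exact p = 0.125). Nid2 held 79.6% ± 7.33 of the nidogen sum. Exons of Nid2 share 437 bases with Rtraf on the opposite strand, which is listed under the older symbol 2700060E02Rik at 128 to 162 CPM. Use of strand in the counting was not given in the sources used here, so reads from that stretch cannot be assigned with certainty.

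**Figure D4:**
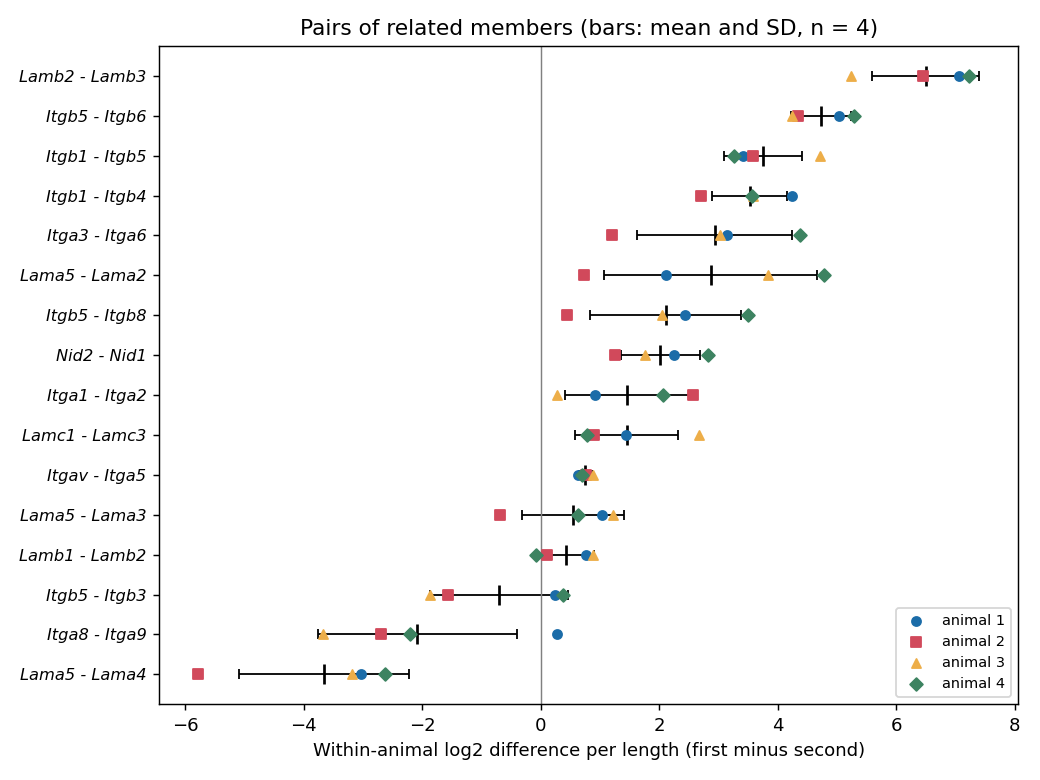
Symbols give the log2 difference per length between the members of a pair within each animal, first minus second, with mean and SD over 4 animals. In most of the pairs drawn all 4 animals lie on 1 side of 0, and Itgav against Itga5 has the narrowest spread.

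In all, 17 pairs of related members were compared per length. In 13 of them all 4 animals had the same sign, and the exact sign-flip p of 0.125 became 0.163 after Benjamini-Hochberg adjustment over the 17 pairs. Itgb1 exceeded Itgb4 by 3.53 ± 0.63 and Itgb5 by 3.75 ± 0.66 log2, and its range per kb did not overlap with either. Itgb5 exceeded Itgb8 by 2.11 ± 1.27, and without division by length by 0.75, with the animals no longer on 1 side (exact p = 0.375). Itgb5 and Itgb3 did not separate: Itgb5 was higher in animals 1 and 4 and lower in animals 2 and 3 (mean -0.70 ± 1.17, exact p = 0.50). Without division by length Itgb5 was lower in all 4 animals (mean -1.52, exact p = 0.125). Itgb5 exceeded Itgb6 by 4.73 ± 0.51 and Lamb2 exceeded Lamb3 by 6.50 ± 0.90. Differences against Itga2, Itgb6, Lama2 and Lamb3 were set partly by the pseudocount of 0.5 CPM, since these genes had 0 in some animals. With the median length of the coding transcripts Itgav exceeded Itga5 by 4.09, Itga1 exceeded Itga2 by 0.55, Lama5 exceeded Lama2 by 1.69 and Lama3 by 0.16, and Lamb2 exceeded Lamb3 by 10.01. For Itga8 against Itga9 both members had animals at 0, and the sign was mixed (3 of 4 animals with Itga9 higher).

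Over the 16 members with a mean of at least 10 CPM the coefficient of variation between animals ran from 9.52% to 57.7%, with a median of 29.7%, beside 22.9% over the 8792 genes of the table at that level. For Itgb3, the most variable of the 16, counting error alone gives 8.42%. Of the 23 members above 1 CPM, the highest value lay in animal 2 for 11, in animal 3 for 7, in animal 4 for 5 and in animal 1 for 0. Over all genes above 1 CPM those shares were 25.7%, 32.9%, 21.3% and 20.2%. The lowest value lay in animal 1 for 9 members, in animal 4 for 6, in animal 3 for 5 and in animal 2 for 3. Over all genes above 1 CPM the lowest value lay in animal 1 for 29.9%, in animal 4 for 25.9%, in animal 3 for 18.7% and in animal 2 for 25.4%.

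Members with contrasting order included Itga6, Itgb3, Itgb4, Lama4 and Lamc1, which were higher in animals 2 and 3 than in animals 1 and 4, and Itga3, Lama5 and Nid2, which were lowest in animal 2. Animal 2 thus had the most Itgb4 and Lama4 and the least Itga3 and Lama5. These members were picked out after their values were seen. Itga2b, Itga5, Itga9, Itgav and Nid1 were likewise higher in animals 2 and 3 than in animals 1 and 4. For Itga5 the variation between animals (9.52%) was no larger than counting error gives (9.91%). The share of all genes with this split was not counted, so it is not shown to be particular to these members. These CPM are over column sums, and the TMM factors ran the same way (0.961, 1.008, 1.064 and 0.970 in animals 1 to 4). In part, fibroblast markers were also higher in animals 2 and 3. Their summed level was 14996, 22287, 19648 and 14759 CPM in animals 1 to 4. The highest value lay in animal 2 for 5 of 8 markers and in animal 3 for the others. Most of that sum was Dcn, at 10961, 15498, 13707 and 11391 CPM. Lum was high in animal 2 but lowest in animal 3, at 87.4, 131, 37.3 and 48.5 CPM. Of that list 7 of 8 were above 1 CPM and none was at 0, with Col3a1 at 2121, 3942, 2965 and 1936 CPM and Pdgfra, a defining receptor, at 19.5, 36.5, 21.8 and 24.1 CPM. Mesothelial markers summed to 12691, 13435, 12403 and 11880 CPM, less than the fibroblast markers in each animal. The part of fibroblast RNA in the levels of these members was not tested.

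**Figure D5:**
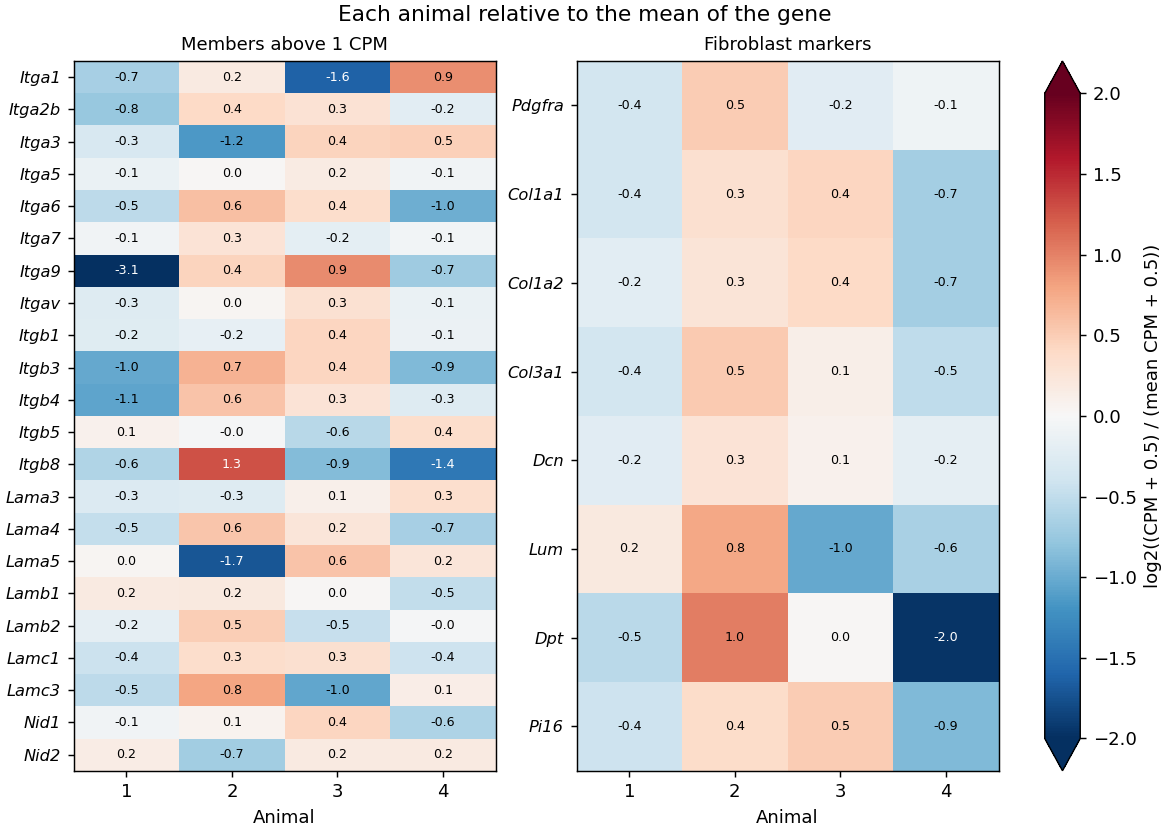
Cells of the map give log2((CPM + 0.5) / (mean CPM + 0.5)) for each animal, with the named members above 1 CPM on the left and the 8 fibroblast markers on the right (red: above the gene's mean, blue: below). Itgb3, Itgb4 and Lama4 are red in animals 2 and 3, and Itga3, Lama5 and Nid2 are blue in animal 2.

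Endothelial, stromal and epithelial cells can carry the same laminins and integrins, so their markers were measured too. In the blood endothelial list 2 of 8 markers were above 1 CPM by edgeR and 1 by limma, with summed levels of 35.6 to 69.6 CPM, nearly all from Kdr, and Cdh5, Emcn and Erg had no count. Of 8 markers of smooth muscle and pericytes 5 were above 1 CPM, with summed levels of 87.3 to 213 CPM, and Lmod1 had no count. In the list of other epithelia 1 of 6 was above 1 CPM (Krt14), with summed levels of 70.9 to 346 CPM, and Cldn4 and Krt5 had no count. Their part in the members' levels was not tested.

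Of 27 adaptors that link integrins to actin 24 (88.9%) were above 1 CPM, with a median of 50.1 CPM. The background was 24.7% of all genes and 52.9% of genes with a rounded count. The actin crosslinker Actn4 (439 ± 40.9 CPM), the scaffold kinase Ilk (225 ± 18.1 CPM), the filamin Flna (219 ± 90.4 CPM) and the talin-binding Kank1 (210.0 ± 54.5 CPM) had the highest CPM. The 3 that were not above 1 CPM, named after their values were seen, were the kindlins Fermt1 and Fermt3 and the parvin Parvg. They had 0.9695 to 1.38 estimated counts over all libraries, each in 1 library. That is under the group floor of 0.171 CPM, so no level can be given. Fermt3 and Parvg are the forms of blood cells.

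Of 19 other basement membrane genes 16 (84.2%) were above 1 CPM, beside 24.7% of all genes and 52.9% of genes with a rounded count. Their median was 40.5 CPM. The matricellular gene Sparc (5621 ± 1310 CPM), the calcium-binding Smoc2 (213 ± 96.1 CPM), the collagen Col18a1 (166 ± 34.8 CPM) and the perlecan gene Hspg2 (93.9 ± 34.3 CPM) led by CPM, and Smoc1 and Frem1 had no count. All 6 non-integrin laminin receptors or partners were above 1 CPM, led by CPM by the syndecan Sdc4 (4457 ± 716 CPM), Rpsa (799.7 ± 57.1 CPM), the Lutheran antigen Bcam (302 ± 69.9 CPM) and the tetraspanin Cd151 (289.8 ± 79.8 CPM), which binds Itga3.

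Of 20 integrin ligands outside the laminins 9 were above 1 CPM by edgeR and 10 by limma, with a median of 1.16 CPM. Highest by CPM were the matricellular gene Cyr61 (2341 ± 1013 CPM), fibronectin (Fn1, 234 ± 151 CPM), Mfge8, an RGD protein (187 ± 34.1 CPM), and Tgfb3, whose latent form is bound by Itgav pairs (144 ± 16.7 CPM). Vitronectin (Vtn), osteopontin (Spp1), Madcam1 and the fibrinogen genes Fga, Fgb and Fgg had no count. Fibrinogen, a ligand that Itga2b with Itgb3 binds on platelets, was thus not detected as RNA at this depth.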

How the data were processed

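RNA of sorted peritoneal mesothelial cells was sequenced after removal of ribosomal RNA, with 1 library for each of 4 mice. The authors deposited estimated counts for each gene. This unit was read from the values: in each library 99.75% to 99.95% of those above 0 differed from a whole number by over 0.000001. Per the submitters' processing notes the build was GRCm38.p5 and the tools included limma 3.38.3, edgeR 3.24.3 and kallisto 0.43.1, with roles unstated. How transcripts were summed to genes was not given in the sources used here.

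CPM is the deposited estimated count over the column sum. Counts were rounded and scaled with TMM (factors 0.961 to 1.06) in edgeR 4.0.16 (R 4.3.3), and a quasi-likelihood F test asked for each of 48425 genes, one-sided, whether its level lay above 1 CPM. Pairs were compared within each animal as log2(CPM + 0.5) minus log2 of length in kb, with TMM-scaled CPM, by exact sign-flip permutation. Lengths, positions and overlaps came from GENCODE M21 (GRCm38), and near-identical copies from blast 2.17.0 (at least 90% identity over 150 bases). Limma 3.58.1 with voom weights and DESeq2 1.42.0 served as alternatives, beside other scalings, thresholds, a count filter and leaving out each animal. The median transcript length was listed first as the length to divide by, but it proved to be that of fragments for some genes, so after the data were seen the longest transcript was made the length used and the median the alternative. All members but 1 are named. Of each further list of pathway genes (adaptors, other basement membrane genes, laminin receptors, other ligands) the 4 highest genes and those with no count are named. Of the marker lists only some genes are named, not by that rule. The values of 1 member and of 1 marker are not reported here. The members and lists were chosen with earlier results of these data known.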

Additional observations from a re-analysis of the deposited data

Results flagged for a closer look

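Of 25 members with a mean of at least 1 CPM, 4 had an animal far from the other three, by a gap to the next animal, over the whole range, above Dixon's critical value for 4 samples. Chance flags about 1 in 20 groups. Itgb1 was high in animal 3, at 211 CPM, with 133 to 144 CPM in the others. Itgb8 was high in animal 2, at 18.5 CPM, with 2.42 to 4.67 CPM in the others. Itga10 was high in animal 2, at 3.71 CPM, with 0 to 0.308 CPM in the others. Its mean reached 1 CPM only through animal 2, and without that animal its fitted level was 0.0736 CPM by edgeR. The filter thus set this flag, which carries no weight of its own. Nid2 was low in animal 2, at 171 CPM, with 307 to 314 CPM in the others. Animal 2 accounts for 3 of these 4 values, with that of Itga10 among them.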

How the results depend on the processing

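The number of members above 1 CPM was 23 with edgeR, 23 with column sums, RLE size factors, DESeq2, a filter of 10 counts or a threshold of 0.5 CPM, and 20 with limma or a threshold of 2 CPM. Leaving out 1 animal gave 21 to 23 members and 11692 to 11857 genes in all. The calls lost included those of Itga1 and Itga9, and no member was gained. Of the 411 results for single members under alternatives, 402 kept their side of the threshold and 9 lost it. Division by the median length of coding transcripts, made the alternative after the data were seen, changed the sign of 1 pair and moved both class measures by more than their spread: Lamb1 minus Lamb2 turned to -3.30, the laminin beta over alpha ratio went from 2.39 to 15.2 and the Itgb1 share of the beta sum from 76.0% to 83.7%. That median is 409 bases for Lamb2 against 5629 for its longest transcript. The mean changed sign in no other of the 153 pair results. Of the 17 pairs, 12 had the first member higher in every animal, against 10 with the median length, 11 without division by length or with a pseudocount of 1 CPM, and 12 to 13 when 1 animal was left out. Lost were Itga1 over Itga2 (0.55, exact p = 0.375, with the median length, and 0.97, exact p = 0.250, with 1 CPM), Lama5 over Lama2 (1.69, exact p = 0.250, median length) and Itgb5 over Itgb8 (0.75, exact p = 0.375, no division). No paired analysis was possible because the series has a single group, so replicates cannot be paired across groups. Pairs of genes were compared within each animal. Depth limits the members under 0.171 CPM over the group, for which no level can be given.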
